A study of Macaca mulatta with 2 samples.

Results

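The monoamine and acetylcholine receptor genes described here, 44 in number, were taken by symbol from a count table of 33618 genes, and all 44 were listed. They comprised 14 serotonin, 5 dopamine, 8 adrenergic, 5 muscarinic, 9 nicotinic and 3 histamine receptor genes. Receptors for serotonin, dopamine, noradrenaline and adrenaline, acetylcholine and histamine let a few small groups of subcortical neurons set the excitability of the whole cortex. Most of them are G protein-coupled receptors, which act through Gq on phospholipase C, through Gi on adenylyl cyclase and potassium channels, or through Gs on cyclic AMP, while the HTR3 and nicotinic (CHRN) subunits assemble into ion channels that the transmitter opens directly. In prefrontal cortex, dopamine and noradrenaline receptors are known for their part in working memory, muscarinic receptors for attention, and histamine receptors for wakefulness, the state that general anesthetics suspend.

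The RNA was from whole prefrontal cortex of 2 infant rhesus macaques, 1 control animal and 1 exposed to sevoflurane, both labelled as 28 days old. According to the labels, the exposed animal inhaled about 2.5 to 3% sevoflurane for 4 h on about postnatal days 7, 14 and 28, although the methods of the study place the repeat exposures at later ages. The methods also say that it breathed oxygen through a tracheal tube and that the cortex was taken right after the last exposure, and they do not say how control animals were handled. The series describes 3 animals per group, and 1 library per group was analysed here. There was thus no replicate check, no p-value is given, and each difference is a difference between 2 libraries and not between the conditions.

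Reads assigned to genes numbered 16960880 for the control animal and 9839105 for the exposed animal. Both held reads on all 6 neuron and all 8 excitatory neuron markers that were looked for. Reads on 7 Y-linked genes numbered 3 in the control library and 4308 in that of the exposed animal, so animal, exposure and, by these reads, sex cannot be told apart. The markers of other cells differed as well. Summed over each list, oligodendrocyte markers held 4056 CPM (counts scaled to the size of the library) in the control against 1994 CPM in the sevoflurane library, with 5 of 6 at least 2-fold lower. Astrocyte markers held 6147 and 4264 CPM (2 of 7 lower), red blood cell genes 24.8 and 80.8 CPM (3 of 4 higher), meningeal genes 203 and 344 CPM (1 of 4 higher), and choroid plexus genes 12.9 and 15.1 CPM (1 of 3 tested higher). Neuron, oligodendrocyte precursor, microglia and endothelial markers had no member 2-fold apart, and mural cell markers had 1 of 5 higher. By the same rule 7.56% of all tested genes were higher and 5.47% were lower. HBA1, ALAS2 (red blood cells) and TTR (choroid plexus) reached 1 CPM in the sevoflurane library alone, so their ratios had to lie above 0. They are among the genes given as higher. By less than 2-fold but beyond counting error, all 4 oligodendrocyte precursor markers were lower (summed, 304 CPM in the control against 237 CPM in the sevoflurane library). In the same sense 4 of the 6 neuron markers were lower and 1 was higher. The part of all these cell type markers in the values below was not tested. In whole tissue, fewer cells of a type and less RNA per cell cannot be told apart.

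Of the 44 receptor genes, 36 reached 1 CPM in the control library and 34 did so after sevoflurane. HTR3A and DRD5 were over 1 CPM in the control library alone. The remaining 8 genes stayed under 1 CPM in both and were not tested. Among them, HTR3B and ADRB3 had 0 reads in each library, which allows up to 0.179 CPM in the control against 0.302 CPM in the sevoflurane library (3 reads). HTR2B had 1 read in each library, HTR2C had 5 control reads and 1 sevoflurane read, and DRD4 had 3 and 1. CHRM5 had 14 and 4 reads and CHRNB4 had 4 and 7. DRD3, a Gi-coupled dopamine receptor, had 11 control reads and 0 sevoflurane reads and was at least 2.17-fold lower against the floor of 3 reads, which takes the control reads as exact. With the counting error of both libraries, the upper 95% limit of its log2 ratio was -0.57. At this depth the counting intervals of the other 5 of these genes that held reads included equal expression. CPM is not divided by transcript length, so levels of different receptors are not ranked against each other.

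**Figure D1:**
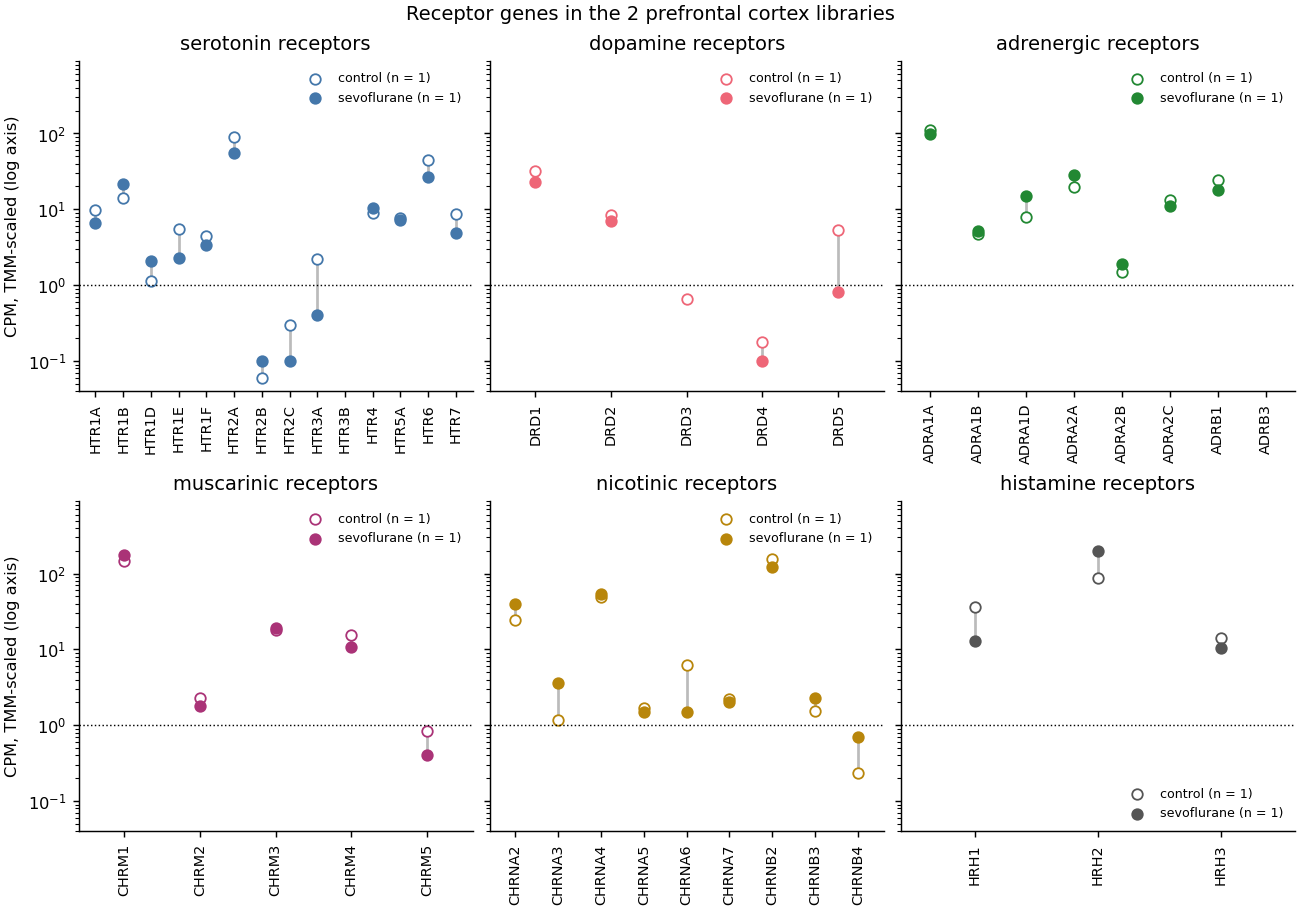
CPM of each of the 44 receptor genes (log axis) in the control library (open circles) and the sevoflurane library (filled circles), 1 panel per family, with 1 library per group and no error bars; a gene with 0 reads in a library has no circle there, and the dotted line is 1 CPM. HTR3A and DRD5 cross that line between the libraries, while HRH2 goes from 87.7 to 196 CPM; levels of different genes are not comparable, because CPM is not divided by length.

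To be counted as higher or lower, a receptor gene needed a log2 ratio (sevoflurane over control) of at least 1 in size together with a 95% counting interval that left out equal expression. By this rule 2 of the 36 tested receptor genes were higher, HRH2 and CHRNA3, and 5 were lower, DRD5, HTR3A, CHRNA6, HRH1 and HTR1E. Over all 18050 tested genes, 7.56% were higher and 5.47% were lower, against 5.56% and 13.9% of the receptor genes. Among the 15197 genes inside the receptor genes' range of mean CPM, the shares were 6.38% and 4.9%. HTR3A and DRD5 entered only through their control level, so their ratios had to lie below 0. Among the 34 genes at or above 1 CPM in both libraries, 2 were higher and 3 lower (5.88% and 8.82%). The share over all genes at that level in both libraries is not given here. Without the 2-fold condition, the counting interval lay below equal expression for 15 receptor genes (41.7%) and above it for 7 (19.4%), where all tested genes gave 28.1% and 28.4%. The median log2 ratio was -0.20 over the 36 receptor genes and -0.0048 over all tested genes. For the 34 genes without HTR3A and DRD5, the interval lay below equal expression for 13 (38.2%) and above it for 7 (20.6%). Their median log2 ratio was -0.14. Summed over all 44 genes, receptor reads made up 988 CPM in the control against 1004 CPM in the sevoflurane library.

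**Figure D2:**
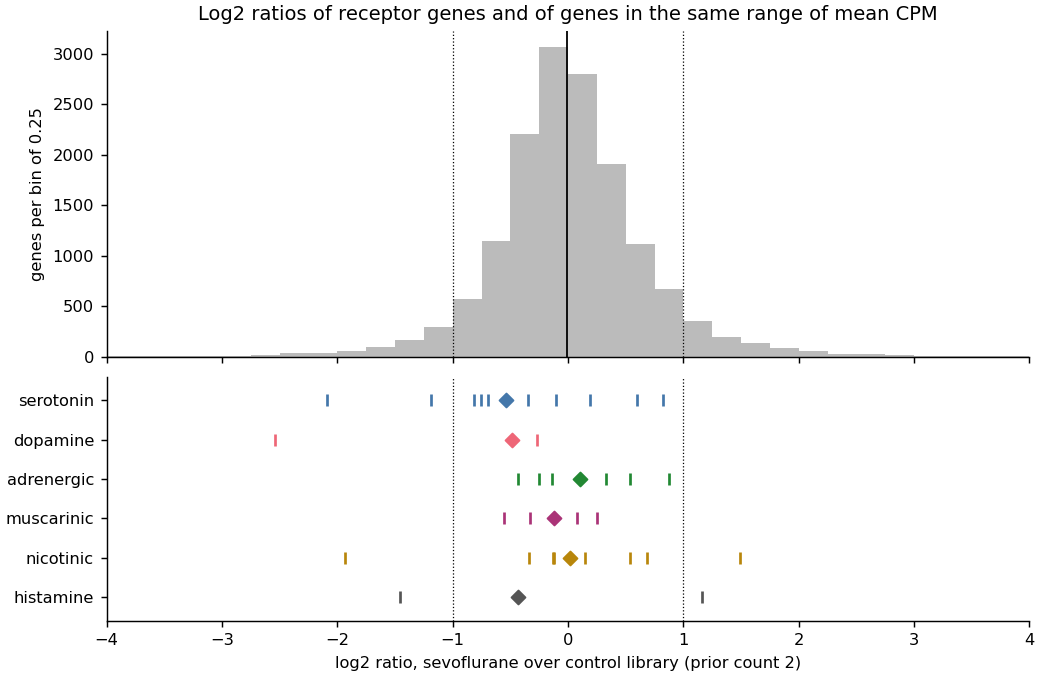
Top, number of tested genes in each bin of log2 ratio (sevoflurane over control) among the 15197 genes with a mean CPM inside the range of the receptor genes, with their median of -0.01 as a solid line; bottom, the ratio of each of the 36 tested receptor genes as a tick and each family's median as a diamond, with dotted lines at a 2-fold difference and the axis limited to -4 to 4. Serotonin and dopamine receptors have medians of -0.54 and -0.48, while adrenergic and nicotinic receptors have medians near 0.

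The 3 histamine receptor genes diverged, with 1 counted as higher and 1 as lower, where all tested genes gave 7.56% and 5.47%. HRH2, the Gs-coupled receptor, had 1474 control reads against 1947 in the shallower sevoflurane library, or 87.7 and 196 CPM (log2 ratio 1.16, 95% interval 1.06 to 1.26). HRH1, the Gq-coupled receptor that sedating antihistamines block, had 603 and 129 reads, or 35.9 and 13.0 CPM. Its log2 ratio was -1.46 (95% interval -1.75 to -1.19). HRH1 overlaps ATG7 in the RefSeq annotation, and since the strand setting of the counting is not given, reads from both genes may not be separable. ATG7 itself had 695 and 254 reads (log2 ratio -0.69). HRH3, a Gi-coupled receptor that restrains histamine release, had 236 and 103 reads (log2 ratio -0.43, 95% interval -0.79 to -0.10). There were thus 2.44 HRH2 reads for each HRH1 read in the control and 15.1 after sevoflurane. That ratio was 6.17 times as high in the sevoflurane library, with an exact conditional 95% interval of 5.03 to 7.61, and no scaling enters it. HRH2 made up 63.7% of the histamine receptor reads in the control and 89.4% after sevoflurane. The family's median ratio was therefore -0.43 while its summed level went the other way, from 138 to 219 CPM.

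Of 11 tested serotonin receptor genes, 8 had ratios below 0, and the interval lay below equal expression for 6 and above it for 1. Over all tested genes, 50.3% had ratios below 0, 28.1% an interval below equal expression and 28.4% one above it. HTR3A, which entered only through its control level, is among the 8 and the 6. HTR2A, the Gq-coupled receptor that psychedelic drugs activate, had 1496 control against 546 sevoflurane reads, or 89.0 and 55.0 CPM (log2 ratio -0.69, 95% interval -0.84 to -0.55). The Gs-coupled HTR6 had 750 and 262 reads, or 44.6 and 26.4 CPM (log2 ratio -0.76, 95% interval -0.97 to -0.55). HTR7, which is also Gs-coupled, had 145 and 48 reads, or 8.63 and 4.83 CPM (log2 ratio -0.82). These 3 genes were lower beyond counting error but by less than 2-fold. HTR4, the remaining Gs-coupled member, had 151 and 102 reads, and its interval of -0.18 to 0.56 included equal expression. The Gi-coupled HTR5A, with 129 and 71 reads, also included it (95% interval -0.54 to 0.33).

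The 5 Gi-coupled HTR1 genes did not move together. HTR1E had 92 control against 23 sevoflurane reads, or 5.47 and 2.32 CPM, and was counted as lower (log2 ratio -1.19, 95% interval -1.97 to -0.57). HTR1A, which acts both as an autoreceptor on serotonin neurons and as a receptor on cortical neurons, had 163 and 66 reads (log2 ratio -0.54, 95% interval -0.98 to -0.12). HTR1F had 74 and 34 reads, with an interval of -0.99 to 0.24. HTR1B, known as a receptor of axon terminals, went the other way, with 236 control against 212 sevoflurane reads, or 14.0 and 21.3 CPM. Its log2 ratio was 0.60 (95% interval 0.33 to 0.88), which made it the single serotonin receptor gene with an interval above equal expression. HTR1D, a close relative of HTR1B, had 19 and 21 reads and a ratio of 0.82 that its interval of -0.06 to 1.88 did not separate from 0. HTR1B took 7.16% of the serotonin receptor reads in the control (exact 95% interval 6.30 to 8.09%) and 15.2% after sevoflurane (13.4 to 17.2%). HTR2A took 45.4% in the control (43.7 to 47.1%) and 39.3% after sevoflurane (36.7 to 41.9%).

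HTR3A, the obligate subunit of the serotonin-gated channel, had 37 control reads and 4 sevoflurane reads, or 2.20 and 0.40 CPM. The log2 ratio of -2.09 rests on few reads, which left a 95% interval of -4.40 to -0.97. In cortex HTR3A is known from interneurons born in the caudal ganglionic eminence. Of the 7 tested markers of those cells, 0 were 2-fold apart, where all tested genes gave 7.56% higher and 5.47% lower. Ratios lay above 0 for 5 of the markers and below it for 2, with a median log2 ratio of 0.06. Over all tested genes, 50.3% had ratios below 0. VIP (157 and 95 reads), ADARB2 (186 and 132) and PROX1 (571 and 351) had log2 ratios of 0.03, 0.26 and 0.06. CNR1 was the lowest of the 7 markers with a log2 ratio of -0.89. The summed level of the list was 219 CPM in the control against 177 CPM in the sevoflurane library. Of these sums, CNR1 alone held 110 and 59.1 CPM. The part of these markers in the HTR3A value was not tested.

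All 3 tested dopamine receptor genes had ratios below 0, as did 50.3% of all tested genes, and DRD5 among them was tested only through its control level. DRD1, the main Gs-coupled dopamine receptor of prefrontal cortex, had 545 control against 230 sevoflurane reads, or 32.4 and 23.2 CPM (log2 ratio -0.48, 95% interval -0.71 to -0.26). DRD5, its close Gs-coupled relative, had 91 and 8 reads, or 5.42 and 0.81 CPM, and its CPM was 6.72-fold lower. Its log2 ratio of -2.54 (95% interval -4.0 to -1.71) was the lowest of the 36 and the 105th lowest of all 18050 tested genes. For each DRD5 read there were 5.99 DRD1 reads in the control and 28.7 after sevoflurane, a ratio 4.80 times as high (exact conditional 95% interval 2.28 to 11.6). DRD2, the Gi-coupled target of antipsychotic drugs, had 141 and 69 reads, and its interval of -0.71 to 0.15 included equal expression. The read ratio of DRD1 to DRD2 was 3.87 in the control and 3.33 after sevoflurane, a change that counting error could not separate from 1 (95% interval 0.62 to 1.22).

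Striatum expresses DRD1 and DRD2 far more strongly than cortex, so its markers were set beside these values. Of 9 tested markers of striatal projection neurons, PPP1R1B (log2 ratio 1.24) and GPR6 (1.78) were counted as higher and PDE10A (-1.53) as lower. Among all tested genes the shares were 7.56% higher and 5.47% lower. GPR6, with 13 and 30 reads, reached 1 CPM in the sevoflurane library alone, so its ratio had to lie above 0. SIX3 had 0 reads in both libraries. The list's median log2 ratio was 0.40. Intervals lay above equal expression for 5 of the 9, among them PENK, TAC1, ADORA2A and GPR6, and below it for 2. For all tested genes these shares were 28.4% above and 28.1% below. The list's summed level was 340 CPM in the control against 336 CPM in the sevoflurane library, with ADCY5 alone at 156 and 149 CPM. The part of these markers in the dopamine receptor values was not tested.

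**Figure D3:**
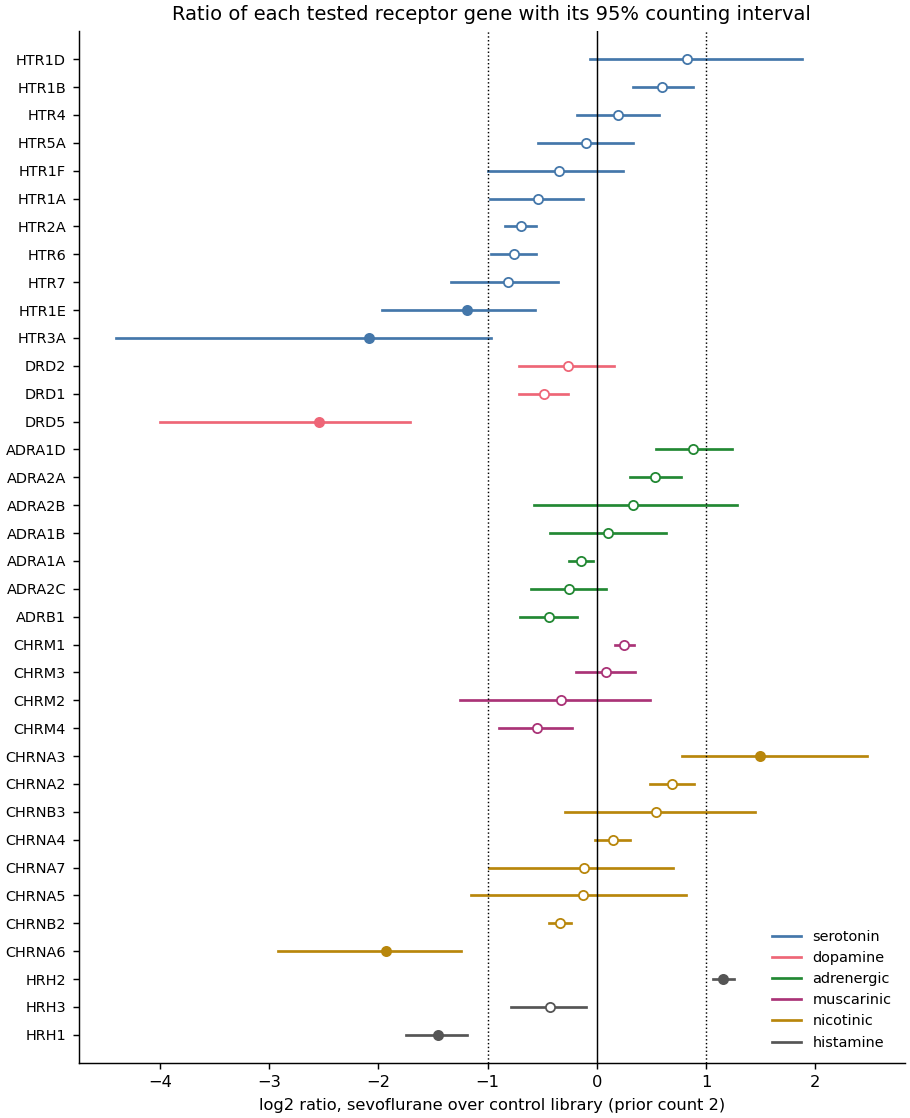
Log2 ratio of sevoflurane over control library for the 36 tested receptor genes, coloured by family; horizontal lines are 95% counting intervals from 1 library per group, filled circles are genes counted as at least 2-fold higher or lower, and dotted lines mark 2-fold. DRD5, HTR3A and CHRNA6 have the lowest ratios, and CHRNA3 and HRH2 are the filled circles on the right.

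Adrenergic receptor genes were spread around 0, with a median log2 ratio of 0.11 over 7 tested and no member 2-fold apart. Among all tested genes, 7.56% were higher and 5.47% lower. ADRA1A, a Gq-coupled receptor, had 1841 control against 985 sevoflurane reads, or 110 and 99.2 CPM (log2 ratio -0.14, 95% interval -0.26 to -0.03). ADRA1D, which couples to Gq as well, had 135 and 148 reads, or 8.03 and 14.9 CPM (log2 ratio 0.88, 95% interval 0.55 to 1.24). ADRA1B, from the same subfamily, had 80 and 51 reads, with an interval of -0.43 to 0.63. ADRA1D reads per ADRA1A read were 2.05 times as high in the sevoflurane library (exact conditional 95% interval 1.59 to 2.64).

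The Gi-coupled subfamily was divided as well. ADRA2A, the target of the sedative dexmedetomidine and of guanfacine, had 330 control against 283 sevoflurane reads, or 19.6 and 28.5 CPM (log2 ratio 0.53, 95% interval 0.30 to 0.77). ADRA2C had 220 and 109 reads, and its interval of -0.60 to 0.08 included equal expression. ADRA2B had 25 and 19 reads (95% interval -0.58 to 1.28). The Gs-coupled ADRB1, the target of cardiac beta blockers, was lower beyond counting error with 404 and 176 reads, or 24.0 and 17.7 CPM (log2 ratio -0.44, 95% interval -0.70 to -0.18). The summed level of the family was 181 CPM in the control against 178 CPM in the sevoflurane library.

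Among muscarinic receptors, CHRM1 took most of the reads in both libraries. CHRM1, a Gq-coupled receptor of cortical pyramidal neurons, had 2476 control against 1743 sevoflurane reads, or 147 and 176 CPM (log2 ratio 0.25, 95% interval 0.16 to 0.34). CHRM4, a Gi-coupled receptor, had 264 and 106 reads, or 15.7 and 10.7 CPM (log2 ratio -0.55, 95% interval -0.90 to -0.23). CHRM4 overlaps MDK in the RefSeq annotation, which had 63 and 55 reads. CHRM3 (302 and 189 reads) and CHRM2 (39 and 18 reads) had intervals that included equal expression, -0.19 to 0.35 and -1.25 to 0.48. The family's median of -0.13 and its summed level of 184 CPM in the control against 207 CPM in the sevoflurane library differ in direction, since CHRM1 dominates the sum. With a filter of 5 CPM, which leaves out CHRM2, the median was 0.10.

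**Figure D4:**
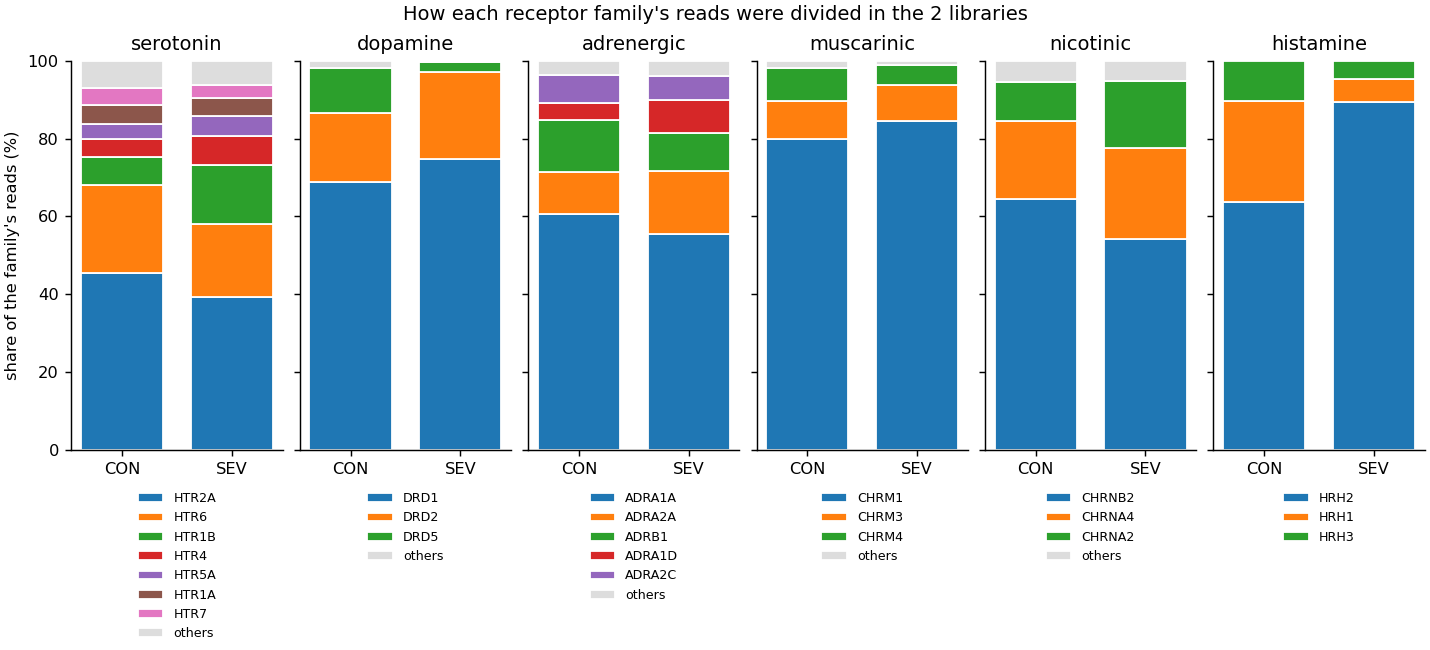
Share of each family's reads taken by each gene in the control (CON) and sevoflurane (SEV) library, in percent, with genes under 4% in both libraries pooled in grey. HRH2 grows from 63.7 to 89.4% of the histamine receptor reads, HTR1B from 7.16 to 15.2% of the serotonin receptor reads and CHRNA2 from 10.1 to 17.3% of the nicotinic receptor reads, while DRD5 shrinks from 11.5 to 2.60% of the dopamine receptor reads; shares compare libraries and not genes, because longer transcripts collect more reads.

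The nicotinic subunits that form the main cortical receptor, CHRNA4 and CHRNB2, were less than 2-fold apart. CHRNA4 had 813 control against 532 sevoflurane reads, or 48.4 and 53.6 CPM (95% interval -0.01 to 0.31). CHRNB2 had 2625 and 1227 reads, or 156 and 124 CPM (log2 ratio -0.34, 95% interval -0.44 to -0.24), and overlaps ADAR in the annotation (4735 and 2432 reads). CHRNA4 reads per CHRNB2 read were 1.40 times as high in the sevoflurane library (exact conditional 95% interval 1.23 to 1.60). CHRNA7, which forms channels of a single kind of subunit, had 37 and 20 reads, with an interval of -0.99 to 0.69. CHRNA5, an accessory subunit, had 28 and 15 reads (95% interval -1.15 to 0.81).

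Other nicotinic subunits were further apart. CHRNA2 had 411 control against 391 sevoflurane reads, or 24.5 and 39.4 CPM (log2 ratio 0.68, 95% interval 0.48 to 0.89). CHRNA3, best known from autonomic ganglia, had 20 and 36 reads, or 1.19 and 3.63 CPM, and was counted as higher (log2 ratio 1.49, 95% interval 0.78 to 2.47). It overlaps CHRNA5 in the RefSeq annotation, and without a given strand setting, reads from both genes may not be separable. CHRNA6, known from dopamine neurons and the visual pathway, had 104 and 15 reads, or 6.19 and 1.51 CPM, and was counted as lower (log2 ratio -1.93, 95% interval -2.92 to -1.25). CHRNB3, which often joins CHRNA6 in a receptor, had 26 and 23 reads and an interval of -0.29 to 1.45. CHRNB3 reads per CHRNA6 read were 0.25 in the control and 1.53 after sevoflurane, 6.13 times as high (exact conditional 95% interval 2.62 to 14.4).

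Grouped by coupling instead of ligand, the 7 tested Gs-coupled genes had a median log2 ratio of -0.48, the 13 Gi-coupled genes -0.27, the 9 channel subunits -0.12 and the 7 Gq-coupled genes 0.08. The interval lay below equal expression for 5 of the 7 Gs-coupled genes, HTR6, HTR7, DRD1, DRD5 and ADRB1, and above it for HRH2, where all tested genes gave 28.1% below and 28.4% above. DRD5 is among the 5 and entered only through its control level. Because of HRH2, the summed level of the Gs-coupled genes was nevertheless 212 CPM in the control against 279 CPM in the sevoflurane library. The Gq-coupled genes held 414 and 382 CPM and the Gi-coupled genes 118 and 114 CPM. Neither the classes nor the families were compared by a test.

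Genes that make, break down or carry the transmitters were described as a further list. Of 26 listed, 25 were in the table and 16 were tested, of which 4 were at least 2-fold lower and 0 at least 2-fold higher, with a median log2 ratio of -0.51. All tested genes gave 5.47% lower and 7.56% higher. The interval lay below equal expression for 9 of the 16 and above it for 2, where all tested genes gave 28.1% and 28.4%. TH and TPH1 reached 1 CPM in the control library alone and HDC in the sevoflurane library alone, so the filter fixed the sign of these 3 ratios. The intervals of TPH1 (-3.14 to 0.06) and HDC (-0.69 to 1.94) included equal expression. TH is 1 of the 4 lower genes. MAOB, which degrades monoamines and is known from astrocytes, had 955 control against 148 sevoflurane reads, or 56.8 and 14.9 CPM (log2 ratio -1.92, 95% interval -2.19 to -1.68). The 7 astrocyte markers had a median log2 ratio of -0.49 and ranged from -1.38 (AQP4) and -1.35 (GFAP) to 0.27 (SLC1A3), and their part in the MAOB value was not tested. TH, the rate-limiting enzyme of dopamine and noradrenaline synthesis, had 46 and 4 reads (log2 ratio -2.39, 95% interval -4.70 to -1.31). GCH1, which makes the cofactor of that enzyme, had 94 and 22 reads (log2 ratio -1.28, 95% interval -2.08 to -0.65). BCHE, butyrylcholinesterase, had 73 and 17 reads (log2 ratio -1.27, 95% interval -2.20 to -0.57).

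The degrading enzymes HNMT (296 and 96 reads), which inactivates histamine, and ACHE (303 and 122 reads), which splits acetylcholine, had log2 ratios of -0.86 and -0.55, each with an interval below equal expression. SLC29A4, a low-affinity monoamine transporter, had the opposite direction, with 951 and 888 reads (log2 ratio 0.66, 95% interval 0.53 to 0.79). The cell bodies of the transmitter neurons lie outside cortex, and several of their defining genes had few reads or none. TPH2 and CHAT had 0 reads in both libraries, SLC6A3 had 2 in each, and SLC6A4 had 0 control against 5 sevoflurane reads. SLC6A2, the noradrenaline transporter gene, had 12 control reads and 0 sevoflurane reads. Of the 7 aminergic neuron markers, 3 reached 1 CPM, and besides TH these were DBH (48 and 33 reads) and SLC18A2 (19 and 14 reads), both with intervals that included equal expression.

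**Figure D5:**
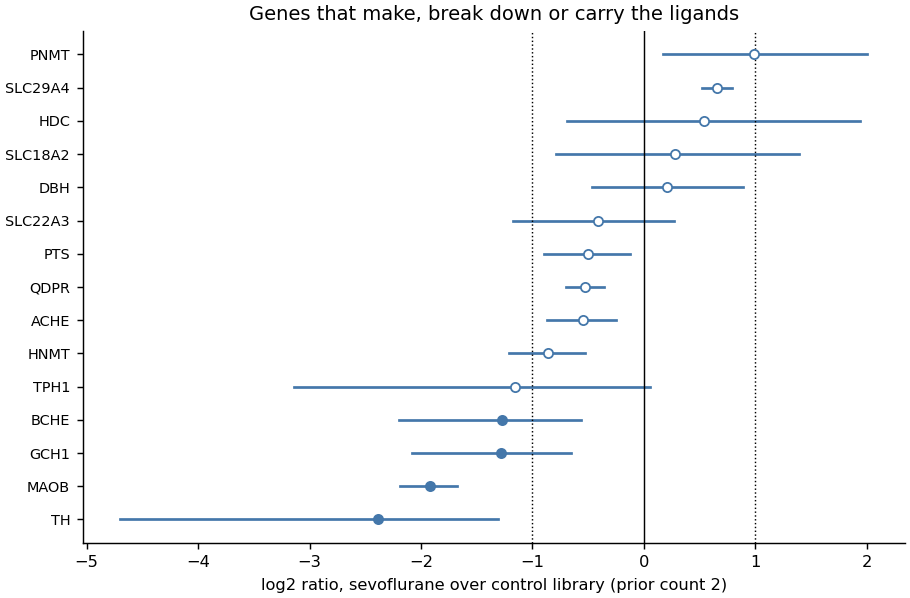
Log2 ratio of sevoflurane over control library for 15 of the 16 tested genes that make, break down or carry monoamines, acetylcholine and histamine; lines are 95% counting intervals from 1 library per group, filled circles are genes at least 2-fold apart, and dotted lines mark 2-fold. TH, MAOB, GCH1 and BCHE are filled on the left and no gene is filled on the right.

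Below the receptors, the 49 tested G proteins, effectors and regulators had a median log2 ratio of -0.04. Of them, 2 were higher and 2 lower, where all tested genes gave 7.56% and 5.47%. ADCY1, a calcium-activated adenylyl cyclase and the list's gene with most reads, had 23231 control against 12553 sevoflurane reads (log2 ratio -0.13). PPP1R1B, whose protein DARPP-32 relays dopamine signals, had 644 and 899 reads (log2 ratio 1.24, 95% interval 1.09 to 1.39). The phosphodiesterase gene PDE10A had 1410 and 287 reads (log2 ratio -1.53, 95% interval -1.73 to -1.35). PRKACB, a catalytic subunit of protein kinase A, was counted as higher on 9 and 22 reads (95% interval 0.87 to 3.35). It reached 1 CPM in the sevoflurane library alone, so its ratio had to lie above 0. The receptor kinase gene ADRBK2 was counted as lower on 129 and 32 reads (95% interval -1.86 to -0.68). The 3 listed genes of the potassium channels that Gi-coupled receptors open were picked out after their values were seen. KCNJ3 at 0.45, KCNJ6 at 0.65 and KCNJ9 at 0.41 on the log2 scale had intervals above equal expression, each by less than 2-fold. Over all 49 genes of the list, the interval lay above equal expression for 16 and below it for 17. All tested genes gave 28.4% and 28.1%.

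Of 12 tested partners and chaperones of the receptors, LYPD6 was higher and LYPD1 lower, where all tested genes gave 7.56% and 5.47%. LYPD6 and LYPD1 encode members of the Ly6 family, small membrane-anchored proteins of which several bind nicotinic receptors. LYPD6 had 353 control against 583 sevoflurane reads (log2 ratio 1.48, 95% interval 1.29 to 1.68), while LYPD1 had 1119 and 239 reads (log2 ratio -1.46, 95% interval -1.68 to -1.27). LYNX1, the best-known member, had 4039 and 2428 reads, with an interval of -0.05 to 0.10. The nicotinic chaperone RIC3 also included equal expression, with 959 and 547 reads. CALY, which encodes the neuronal vesicle protein calcyon, had 906 and 297 reads (log2 ratio -0.85, 95% interval -1.04 to -0.66).

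Receptor subtypes and subunits outside the 44 gave no gene 2-fold apart among 5 tested of 12 listed. Among all tested genes, 7.56% were higher and 5.47% lower. CHRNB1, a muscle-type nicotinic subunit, had the most reads of these, 187 in the control and 90 after sevoflurane (95% interval -0.68 to 0.07).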

How the data were processed

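Prefrontal cortex RNA sequencing counts of 2 rhesus macaques, 1 control and 1 exposed to sevoflurane, were analysed. The authors deposited raw read counts per gene. Their processing notes name HISAT2 2.0.4, and the counting tool, strand setting, genome build and annotation are not given in the sources used here. Counts were scaled with TMM factors in edgeR 4.0.16 (R 4.3.3), from the 18050 genes that reached 1 CPM in one of the libraries or both, and log2 ratios used a prior count of 2. Intervals (95%) took no prior count and were converted from the exact Clopper-Pearson interval for the fraction of a gene's reads that came from the sevoflurane library. Ratios of a pair of genes used the exact conditional odds ratio (scipy 1.17.1, Python 3.11.15), for pairs picked after their values were seen. Without molecular identifiers named in the sources, intervals and the floor of 3 reads cover counting error only. With 1 library per group, no test could be fitted.

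The members, lists and alternatives were chosen with earlier results of these data known. All 44 receptor genes were to be accounted for, and of the other lists (ligand handling, G proteins and effectors, partners, other receptors) the genes 2-fold apart and the gene with most reads. Items that this choice covers are not all reported here. Other genes named were chosen after their values were seen. Gene neighbours came from a RefSeq gene table (telomere-to-telomere assembly MMU8v2.0), in which all 44 symbols matched and 10 overlapped another protein-coding gene. DESeq2 1.42.0 size factors, library totals, upper-quartile factors, a prior count of 0.5, other filters, folds and a 99.9% interval were tried. The procedure was tested on simulated data that held counting error alone, so that test says nothing about differences between animals.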

Additional observations from a re-analysis of the deposited data

How the results depend on the processing

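No paired analysis was possible because there was 1 library per group, and no replicate could be left out for the same reason. All 243 values of single receptor genes under the alternatives stayed inside their own counting intervals and no tested gene changed its 2-fold call. Whether an interval left out equal expression could change. That of CHRNA4, -0.013 to 0.306, lay above it with library totals (0.013 to 0.333) and with a filter of 5 CPM (0.009 to 0.329). Changing the scaling shifted all tested genes by at most 0.027 on the log2 scale. The medians of the families and coupling classes stayed inside the counting intervals of their middle genes, which are wide. The sign of 3 medians near 0 turned, with 5 CPM for the muscarinic (0.10) and nicotinic (-0.07) genes and with a filter of 1 read for the Gq-coupled genes (-0.05), as genes left or entered. The numbers of genes at 1 CPM stayed within 1.5 times. The counts of genes 2-fold apart moved with what was asked of them. A filter of 5 CPM, which left out CHRNA3 and HTR3A, gave 1 higher and 4 lower genes, a filter of 1 read, which let in DRD3, gave 6 lower, a threshold of 1.5-fold gave 5 higher and 8 lower, and a threshold of 4-fold gave 0 higher and 2 lower. A filter on a mean of 1 CPM, chosen after seeing the data, tested the same 36 receptor genes. The 9839105 reads of the sevoflurane library limit HTR3A, DRD5 and the genes under 1 CPM.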

Other observations

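Some receptor genes that lie near each other had ratios of opposite sign, where 50.3% of all tested genes had ratios below 0. By gene order in the RefSeq table, CHRNB3 and CHRNA6 are neighbours, and their log2 ratios were 0.54 and -1.93. The interval of CHRNB3, -0.29 to 1.45, included equal expression, and that of CHRNA6, -2.92 to -1.25, lay below it. CHRNA5, CHRNA3 and CHRNB4 lie in a row. CHRNA5 had 28 control and 15 sevoflurane reads and CHRNA3, which overlaps it, had 20 and 36. The interval of CHRNA5, -1.15 to 0.81, included equal expression, and that of CHRNA3, 0.78 to 2.47, lay above it. Since the strand setting of the counting is not given, reads from both genes may not be separable. Reads per CHRNA5 read on CHRNA3 were 3.36 times as high in the sevoflurane library (exact conditional 95% interval 1.36 to 8.42). DRD1 and HRH2 are separated by SFXN1 alone, and their log2 ratios were -0.48 and 1.16. Their intervals were -0.71 to -0.26 and 1.06 to 1.26. These clusters were looked at after the values had been seen.

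Some markers of neuron subtypes were over 2-fold apart, while 0 of 6 general neuron markers were. Among 8 excitatory neuron markers 1 was higher and 2 were lower, and among 8 inhibitory neuron markers 1 was higher. All tested genes gave 7.56% higher and 5.47% lower. NEUROD6, a transcription factor gene of excitatory neurons, had 1315 control and 119 sevoflurane reads (log2 ratio -2.69). FEZF2, of deep-layer projection neurons, had 252 and 67 reads (-1.14 on the log2 scale), and CUX2, of upper layers, had 2738 and 3515 (1.12). Ratios of the excitatory neuron list lay above 0 for 4 markers, TBR1 (0.57) among them, and below 0 for 4. Whether cortical layers differed was not tested. PVALB, of fast-spiking interneurons, had 68 and 221 reads (2.42). The general neuron markers ranged from -0.56 to 0.83. The part of these differences in the receptor values was not tested.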
